A study of Mus musculus with 185 samples.

Results

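The hypothalamus of mice on chow was compared with the other dissected brain regions of the same mice. Each heading of the count matrix is the identifier of 1 sample but stands over 5 columns, so it was read as naming the mouse and not the region, and the hypothalamus column of a mouse was found from 6 genes, Avp, Oxt, Nkx2-1, Six6, Rax and Fezf1. The level of each was taken as log2(CPM + 1), where CPM is counts scaled to a column total of 1000000, and the column with the highest mean over the 6 genes was chosen if that mean was at least 1 above the next. Columns with fewer than 1000000 counts were left out. A hypothalamus column was found in 12 of the 15 chow mice, 5 in the 16 h study and 7 in the 24 h study, out of 75 columns of chow mice, in a series of 37 mice with 5 columns each. It was compared with the sum of the other columns of its mouse, 46 columns in all (19 at 16 h and 27 at 24 h). The 6 genes were removed before any test.

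All mice were male C57BL/6J animals of 8 weeks with free access to chow, and no genotype or drug was involved. The 16 h study held 6 chow mice housed 2 to a cage, from which the hypothalamus was taken with prefrontal cortex, hippocampus and both colliculi, inferior and superior. In the 24 h study 9 chow mice were housed singly after 3 days of acclimation, and zona incerta was sequenced in place of prefrontal cortex. Bulk RNA-seq after ribosomal RNA depletion was run on each region, and the hypothalamus was dissected in 1 piece, so all its nuclei share a library. Sequencing run, housing and 1 of the regions differ between the studies, so these cannot be told apart in any difference between them.

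The hypothalamus is a small region at the base of the brain that controls feeding, arousal, body temperature, water balance, reproduction and the pituitary gland. Its neurons lie in nuclei that differ in the neuropeptides they release, each made as a precursor protein, cut by convertases and packed into dense-core vesicles. Developmental transcription factors such as Sim1, Otp and Nr5a1 set up these nuclei and stay on in the adult. The collicular, hippocampal, cortical and thalamic neurons of the other regions carry other transcription factors and rely mostly on fast glutamate and GABA transmission.

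The 6 genes gave the chosen columns a mean level of 4.18 to 4.66 at 16 h and 4.17 to 4.82 at 24 h, and the other columns of these mice one of 0.0752 to 0.381 at 16 h and 0.0648 to 1.66 at 24 h. These values made the choice and are a description. Vasopressin (Avp), which acts on the kidney, had 270.3, 136.4, 142.9, 182.8 and 132.3 CPM in the hypothalamus columns of mice 1, 2, 3, 4 and 6 at 16 h and at most 1.5 CPM in another column of these mice. In the 24 h study it ran from 147.4 to 234 CPM against at most 7.49 CPM. Oxytocin (Oxt), released at birth and in lactation, had 29.0 to 86.8 CPM at 16 h and 51.2 to 97.9 CPM at 24 h. The gap to the next column was smallest in mouse 1432, at 3.01, and largest in mouse 1, at 4.49. Just outside the rule lay mice 1441, 5 and 1451, with gaps of 0.389, 0.323 and 0.275. Mouse 5 had a pair of columns with high levels of the 6 genes, at 4.76 and 4.44, and mouse 1451 had its only such column, at 4.32, below the count limit, at 964813 counts. In mouse 1441 the highest column stood at 0.616.

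**Figure D1:**
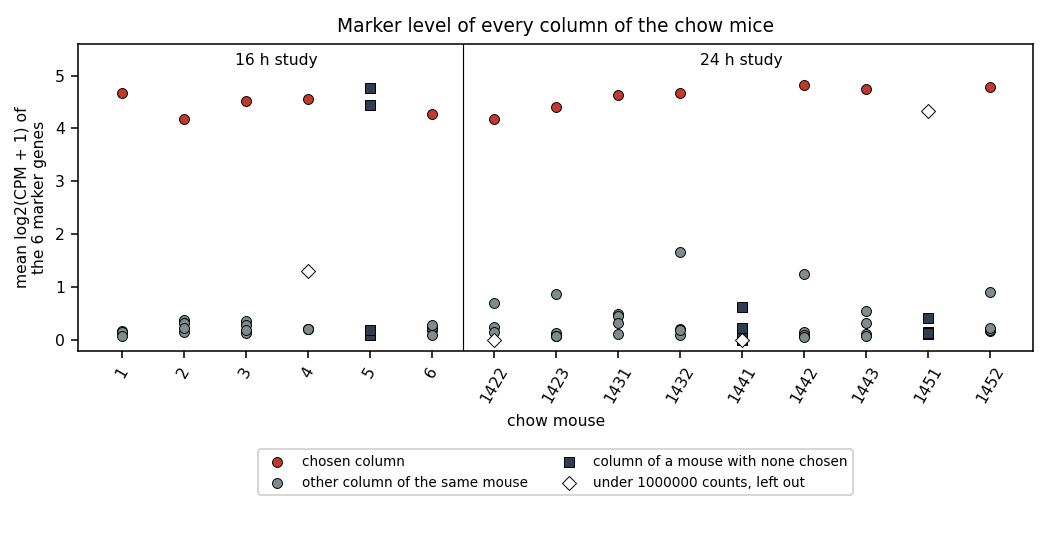
Mean log2(CPM + 1) of Avp, Oxt, Nkx2-1, Six6, Rax and Fezf1 (vertical axis) in every column of the 15 chow mice (horizontal axis), with the chosen hypothalamus columns in red, the other columns of the same mice in grey, columns of mice without a chosen column as squares and columns under 1000000 counts as open diamonds. The 12 chosen columns sit between 4.17 and 4.82 and no other column of these mice exceeds 1.66.

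Hypothalamus columns held 12707072 to 45657731 counts at 16 h and 4596549 to 43014587 counts at 24 h, where the lowest value belongs to mouse 1422 and the next is 16127129. No column repeated another. The mitochondrial share was 4.19 ± 0.38% in the hypothalamus columns and 4.28 ± 0.42% in the sums of the other columns at 16 h (SD, n = 5 mice; exact sign-flip permutation test, two-sided, p = 0.81), and 9.67 ± 1.74% against 12.1 ± 3.97% at 24 h (SD, n = 7; exact permutation p = 0.20). The number of genes expected in a draw of 500000 counts was higher in the hypothalamus in 5 of 5 mice at 16 h, by 378.5 ± 166.5 (SD; exact permutation p = 0.0625, the smallest that 5 mice allow, adjusted p = 0.25 over 4 comparisons). The 24 h study gave 17822 ± 868 against 18153 ± 405 (SD, n = 7; exact permutation p = 0.44). Mouse 1422 stands apart: its hypothalamus library had no measurable RNA, was sequenced with its block on a separate flow cell and carries the submitters' mark for failed alignment. In its hypothalamus column the cortical glutamate transporter gene Slc17a7 had 273 CPM, the haemoglobin gene Hba-a1 had 249 CPM and the endothelial gene Flt1 had 7.83 CPM. Without this mouse, 0 of the genes named at 24 h lost a call or turned a called direction and 7 gained a call, and values without it are printed where they differ most. Some of these genes were named for their values in fits that hold the same other mice, so this is a description. Gene detection was also low in some of the other columns at 24 h, where 7 columns in 5 of the 7 mice held 13429 to 15738 genes in a draw of 500000 counts and a mitochondrial share of 20.7 to 40.0%, against 6.55 to 9.47% in the remaining 20. None of the other columns at 16 h was under the limit of 16000 genes. In 3 mice such a column is the one next in the 6 genes. The labels give the same 5 mice 7 libraries of other regions from the block of mouse 1422, without measurable RNA and marked for failed alignment. Per the study's report, that block was discarded as defective. The labels do not say which columns hold these libraries. Per the study's methods, the superior colliculus sample of mouse 1423 was exchanged with that of a fasted mouse during handling and the sample records were corrected. Whether the headings of the counts carry that correction is not given in the sources used here, so 1 of the 4 other columns of mouse 1423 may belong to a fasted mouse.

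At 16 h, 6198 genes were higher and 5276 lower in the hypothalamus columns, which is 42.2% of the 27194 genes tested (edgeR's quasi-likelihood test paired by mouse, Benjamini-Hochberg adjusted p under 0.05). Which direction held more genes depended on the setting: the counts were 7949 and 4329 with each other column at equal weight in limma, 5569 and 5757 with DESeq2's size factors, 4930 and 5359 in DESeq2, 5576 and 6032 with no filter on low counts, and 5424 and 5934 without mouse 6. Called and changed at least 2-fold were 1440 genes with higher levels (5.3%) and 1400 with lower levels (5.15%). At 24 h, 2330 genes were higher and 2244 lower, 18.1% of 25300, and 836 (3.3%) and 963 (3.81%) of these were changed at least 2-fold. Without mouse 1422 the 24 h counts were 4457 higher and 3265 lower, with 971 and 993 of them at least 2-fold. Leaving out mouse 1442 gave 1531 and 1361, and leaving out mouse 1443 gave 1445 lower. Without the 7 columns of low gene detection they were 3352 and 3183, with 958 and 1237 at least 2-fold. Of the 25075 genes tested in both studies, 694 were called at least 2-fold higher in each (2.77%) and 577 at least 2-fold lower (2.3%). Among these genes, the shared higher ones are 56.3% of the 1232 called so at 16 h and 84.1% of the 825 at 24 h, and the shared lower ones 48.5% of 1190 and 60.5% of 954. In all 12 mice, 349 genes (1.39%) were higher in the hypothalamus column than in every other column of the mouse, and 23 (0.0917%) were lower than in every other. The columns were chosen by 6 hypothalamic genes, so a p-value here says that the level of a gene follows those genes across the columns of a mouse. In bulk tissue, fewer cells of a type and less RNA per cell cannot be told apart.

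**Figure D2:**
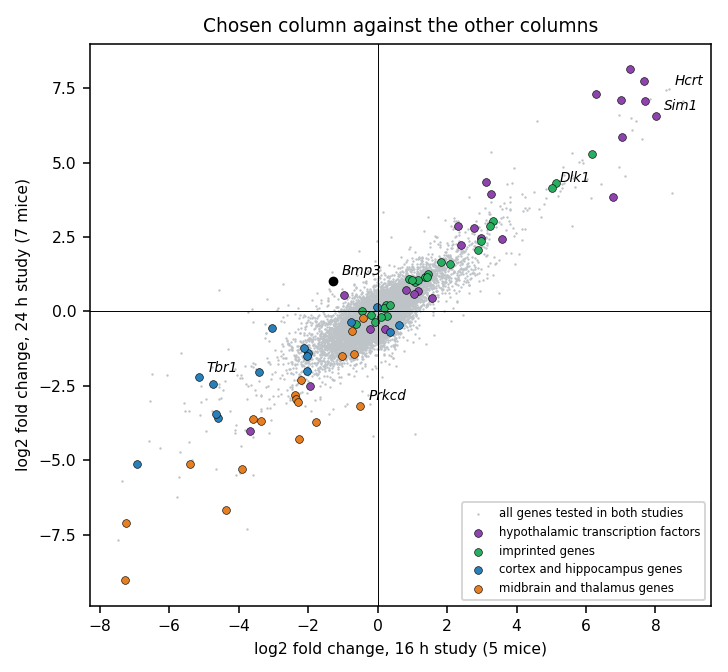
Log2 fold change of the hypothalamus column over the sum of the other columns of the same mouse, at 16 h (horizontal axis, 5 mice) and 24 h (vertical axis, 7 mice), for all 25075 genes tested in both studies in grey and for the members of 4 gene lists that are reported here in colour. Hypothalamic transcription factors such as Sim1 (8.03 and 6.57) and imprinted genes such as Dlk1 (5.03 and 4.15) lie at the upper right, most midbrain and cortical genes at the lower left, and Bmp3 stands away from the diagonal.

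The precursors of orexin and melanin-concentrating hormone showed some of the largest differences of any neuropeptide. Both are made by neurons of the lateral hypothalamus that regulate wakefulness and feeding. Their genes were also among the 10 that the rule for named genes places highest. Promoter sequences of 4 precursor genes of the feeding and arousal list, Hcrt, Pmch, Npvf and Pomc, are printed because all 4 carry the motif TATAAA, in capitals, close to the start. Each is the 150 bases before the annotated start in RefSeq on GRCm38.p6, on the strand of the gene.
Hcrt, chr11:100762932-100763081, minus strand: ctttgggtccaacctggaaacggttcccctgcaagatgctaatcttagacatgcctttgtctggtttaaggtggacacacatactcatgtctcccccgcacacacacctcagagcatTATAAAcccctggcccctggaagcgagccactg
Pmch, chr10:88090922-88091071, plus strand: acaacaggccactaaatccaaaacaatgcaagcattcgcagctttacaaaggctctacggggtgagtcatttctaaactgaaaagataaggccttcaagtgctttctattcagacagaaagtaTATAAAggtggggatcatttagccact
Npvf, chr6:50654446-50654595, minus strand: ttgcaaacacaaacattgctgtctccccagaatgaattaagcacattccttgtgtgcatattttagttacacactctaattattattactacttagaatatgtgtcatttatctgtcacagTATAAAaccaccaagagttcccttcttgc
Pomc, chr12:3954795-3954944, plus strand: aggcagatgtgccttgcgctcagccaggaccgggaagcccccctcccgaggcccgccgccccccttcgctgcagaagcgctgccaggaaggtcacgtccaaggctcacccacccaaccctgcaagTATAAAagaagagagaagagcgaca
The first base of the motif lay at position -33 in Hcrt, -27 in Pmch, -29 in Npvf and -25 in Pomc, counted back from the start. On the gene strand TATAAA was present in the 250 bases upstream of 8.12% of the 27025 promoters in the table and 4.61% of the 13812 that match genes tested in both studies. Among genes at least 2-fold higher in both studies it was present in 43 of 477 (9.01%), and among those at least 2-fold lower in 21 of 303 (6.93%). It was not found in this window for Trh, Cartpt, Gal, Pdyn, Ghrh, Sim1, Otp or Bsx. The letters TAATTA, searched on both strands, were present in 17 (3.56%) of the higher and 14 (4.62%) of the lower genes, against 2.85% of all genes tested in both studies. The letters CAAGGTCA, also on both strands, were present in 2 of the 477 (0.419%) and 6 of the 303 (1.98%), against 0.999% of all genes tested in both studies. A match is a description of the sequence and not a binding site. Agrp and Nr5a1 had no entry.

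Hcrt (orexin precursor; GRCm39 chr11:100651895-100653762) had 98.8, 106.8, 66.8, 87.5 and 49.0 CPM in the hypothalamus columns of mice 1, 2, 3, 4 and 6 at 16 h. In the sums of the other columns it had 0.223, 0.364, 0.211, 0.264 and 0.141 CPM. At 24 h the lowest, median and highest hypothalamus values were 4.13, 103.7 and 123.04 CPM, and the other columns gave 0.133 to 0.976 CPM. The groups did not overlap in either study, and the lowest value belongs to mouse 1422, with 59.0 CPM as the lowest of the other 6. The log2 fold change was 8.32 at 16 h (log2 ratio per mouse 8.10 ± 0.21, SD, n = 5; edgeR adjusted p = 5.59e-11) and 7.43 at 24 h (7.18 ± 2.17, SD, n = 7; edgeR adjusted p = 0.000211), and 7.97 without mouse 1422.

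Pmch (precursor of melanin-concentrating hormone; GRCm39 chr10:87926933-87928237) had 51.1, 49.5, 47.98, 57.6 and 44.9 CPM against 0.223, 0.434, 0.211, 0.264 and 0.236 CPM at 16 h. At 24 h its lowest, median and highest values were 6.53, 50.7 and 59.9 CPM, again with the lowest in mouse 1422. Its level thus varied less between mice than that of Hcrt at 16 h, and it was higher in the hypothalamus column in 12 of 12 mice. The log2 fold changes were 7.43 and 6.40 (edgeR adjusted p = 2.33e-09 and 0.000397). The gene Parpbp overlaps Pmch on the other strand, with log2 fold changes of 0.13 and 0.35. The strand setting of the counts is not given in the sources used here, so reads of overlapping genes on opposite strands may be mixed in either.

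Of the 15 feeding and arousal peptides listed, 11 were tested in both studies, and 8 of them were at least 2-fold higher and 1 at least 2-fold lower in both. Over all genes tested in both studies these shares were 2.77% and 2.3%. The median log2 fold change of the list was 2.46 at 16 h and 3.15 at 24 h, against 0.03 and -0.04 over all genes tested. Npvf, the precursor of RFamide peptides that act on reproduction, had 2.34 to 6.09 CPM at 16 h and at most 0.0791 CPM in the sums of the other columns. Its log2 fold changes were 6.96 and 6.62, which at these low counts depend on how zeros are treated.

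The arcuate nucleus holds the neurons that make Agrp and Npy, which promote feeding, and those that make Pomc and Cartpt, which restrain it. Cartpt had 36.3, 44.7, 40.9, 41.6 and 38.6 CPM against 1.10 to 5.42 CPM at 16 h, and 37.9 to 62.03 CPM against 2.44 to 5.82 CPM at 24 h. Its levels did not overlap, with log2 fold changes of 3.82 and 3.68. Agrp was lower and much less different. It had 10.3, 6.81, 7.53, 6.68 and 6.06 CPM against 1.60 to 2.27 CPM, and its log2 fold changes were 1.94 and 1.81 (edgeR adjusted p = 5.19e-07 and 0.000109). Npy, which neurons of cortex and hippocampus also make, was lower in the hypothalamus at 16 h (log2 fold change -0.76, adjusted p = 0.000709), but against the next column alone it was 0.61 (adjusted p = 0.681). It was not called at 24 h (adjusted p = 0.997), with 10.9 to 14.4 CPM against 9.24 to 18.3 CPM.

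Pomc had 27.5, 39.3, 41.2, 38.8 and 38.7 CPM against 0.909 to 2.12 CPM at 16 h, a log2 fold change of 4.86 (edgeR adjusted p = 7.78e-08). At 24 h it had 75.3, 256 and 200 CPM in mice 1422, 1423 and 1431 and 40.5 to 52.3 CPM in the other 4. Those 3 mice are also the 3 with the most growth hormone mRNA (Gh), a product of the anterior pituitary, at 194, 195 and 7953 CPM against 1.12 to 50.3 CPM in the other 4. At 16 h Gh was at most 1.10 CPM. Corticotrophs and melanotrophs of the pituitary make Pomc too, and its summed marker list ran from 11.5 to 10099 CPM in the hypothalamus columns at 24 h. In mouse 1432 another column held 289 CPM of Pomc, so the sum of its other columns, at 75.03 CPM, exceeded its hypothalamus column. The log2 fold change at 24 h was 3.81 (adjusted p = 0.0103) and 3.49 without mouse 1422, higher in 6 of 7 mice. The part of pituitary tissue in these values was not tested.

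Lower in the hypothalamus was the precursor of cholecystokinin, Cck, which many cortical and hippocampal neurons express. It had 6.72, 9.09, 8.56, 7.52 and 7.24 CPM against 75.7 to 87.2 CPM at 16 h (log2 fold change -3.42, edgeR adjusted p = 4.51e-09). At 24 h its log2 fold change was -2.32 (adjusted p = 0.00395), with 85.7 CPM in mouse 1422 and 8.37 to 21.8 CPM in the other 6. Qrfp, a further RFamide precursor, rose by 1.31 and 1.51 on the log2 scale. Nms, Nmu, Ucn3 and Galp stayed at or below 1.09 CPM in every hypothalamus column and were not tested in both studies.

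Peptides that hypothalamic neurons send to the anterior pituitary differed among themselves, and their list also holds Th, the enzyme gene for the dopamine that restrains prolactin release. Thyrotropin-releasing hormone (Trh) had 63.98, 33.2, 45.5, 43.8 and 32.1 CPM against 0.487 to 0.855 CPM at 16 h and 16.1 to 61.6 CPM against 0.252 to 4.74 CPM at 24 h. Its groups did not overlap, with log2 fold changes of 6.02 and 4.46. Growth hormone-releasing hormone (Ghrh) had only 1.61 to 2.7 CPM at 16 h and 2.48 to 4.93 CPM at 24 h, and rose by 3.92 and 4.82 on the log2 scale. Corticotropin-releasing hormone (Crh) and somatostatin (Sst), which are also made by cortical interneurons, were not called higher in either study. Crh had a log2 fold change of -0.61 at 16 h (adjusted p = 0.0114) and 0.78 at 24 h (adjusted p = 0.21). Gonadotropin-releasing hormone (Gnrh1) differed by 0.57 (adjusted p = 0.0545) and 1.45 (adjusted p = 0.0164), at 0.726 to 3.92 CPM in the hypothalamus columns of both studies. Of the 6 genes in this list, Trh, Ghrh and Th (3.69 and 2.73) were at least 2-fold higher in both studies, beside 2.77% of all genes. None was at least 2-fold lower in either.

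Among 14 further peptide precursors, 7 were at least 2-fold higher in both studies and 0 at least 2-fold lower in both, beside 2.77% and 2.3% of all genes. Their median log2 fold change was 1.24 at 16 h and 0.93 at 24 h. Galanin (Gal) had 18.2, 16.4, 19.2, 16.6 and 18.0 CPM against 0.183 to 0.420 CPM at 16 h, with log2 fold changes of 5.70 and 4.17. Prodynorphin (Pdyn), an opioid precursor, differed by 2.32 and 2.90, neurotensin (Nts) by 3.08 and 2.99, and neurokinin B (Tac2) by 2.90 and 2.45. Adcyap1, which encodes PACAP, differed by 2.13 and 2.23. Vip, a peptide of cortical interneurons and of the suprachiasmatic nucleus, was lower at 16 h (log2 fold change -2.30, adjusted p = 0.0013), and at 24 h it differed by -0.57 (adjusted p = 0.47). Proenkephalin (Penk) rose by 0.46 at 16 h (adjusted p = 0.0098) and differed by 0.13 at 24 h (adjusted p = 0.71). The list of convertases and granule proteins that serve all these peptides had smaller median changes. None of 10 was at least 2-fold higher or lower in both studies, and the median log2 fold change was 0.04 at 16 h and 0.39 at 24 h. Members moved in both directions at 16 h, where 5 were called higher and 4 lower, beside 42.2% of all genes called. At 24 h 4 were called higher, 2 of them at least 2-fold, and 0 lower, beside 18.1% of all genes called.

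Per length of exon, scaled to 1000000 in all, the granule protein secretogranin II (Scg2) had the highest median level of 36 precursors in the hypothalamus columns, at 1091 at 16 h and 1184 at 24 h. Vasopressin followed at 954 and 923, orexin at 616 and 563, and oxytocin at 380 and 519. Next came Vgf, which is cut into several peptides, at 357 and 300, and Pmch at 350 and 290. The first 8 places held the same genes in both studies, ending with Pomc and Trh. Galp, made by few arcuate cells, was lowest at 0.431 and 0.301. Neighbours in this order often overlapped: at 16 h the 5 mice spanned 1071 to 1139 for Scg2 and 867 to 1816 for Avp. At 16 h Pmch, at 314 to 408, did not overlap Pomc, at 111.6 to 166.5. At 24 h Pomc reached 867 and exceeded Pmch in mice 1422, 1423 and 1431. The exon length is the union of all annotated exons and may exceed that of the transcript used.

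**Figure D3:**
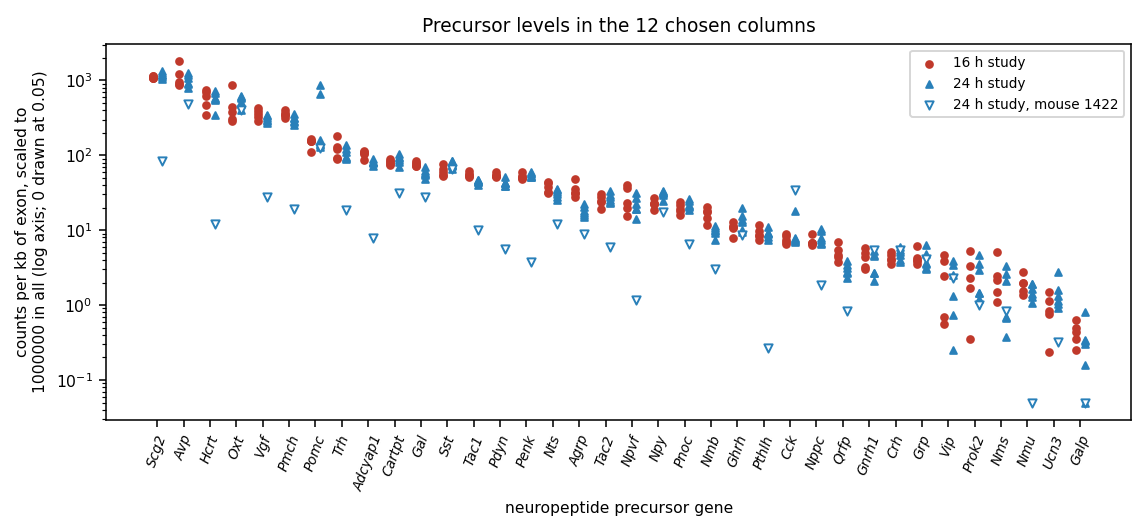
Level of 36 neuropeptide precursor genes in the 12 hypothalamus columns (vertical axis, counts per kilobase of exon scaled to 1000000 in all, log axis), ordered by the median at 16 h, with 16 h mice as circles, 24 h mice as triangles and mouse 1422 as open triangles. Levels range from 1091 for Scg2 to 0.431 for Galp in the 16 h medians, and mouse 1422 lies below the other mice for most precursors. Avp and Oxt are among the genes that chose these columns.

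Transcription factors of hypothalamic development were the list with the most members at least 2-fold higher in both studies. Of 26 listed, 25 were tested in both studies, 16 were at least 2-fold higher and 2 at least 2-fold lower in both, and 12 exceeded every other column in all 12 mice. Over all genes the last 3 shares were 2.77%, 2.3% and 1.39%. The median log2 fold change was 2.97 at 16 h and 2.64 at 24 h. Nr5a1 (steroidogenic factor 1; GRCm39 chr2:38581468-38604642), which specifies the ventromedial nucleus, had 14.1, 15.0, 22.8, 18.7 and 17.9 CPM against 0.0264 to 0.196 CPM at 16 h. Its values at 24 h were 5.44, 14.4 and 17.3 CPM (lowest, median and highest), and the other columns held 0.0122 to 0.0979 CPM. The log2 fold changes were 7.26 and 8.13 (edgeR adjusted p = 1.21e-07 and 4.11e-06). An antisense gene, Nr5a1os, overlaps it.

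Sim1 (GRCm39 chr10:50770826-50865248), needed for the paraventricular and supraoptic nuclei, had 31.96, 29.5, 33.3, 34.2 and 31.2 CPM against 0.0314 to 0.182 CPM at 16 h. Outside mouse 1422, with 2.61 CPM, it stayed between 25.2 and 31.3 CPM at 24 h, against 0.134 to 0.412 CPM. These levels were close between mice and between studies, and the log2 fold changes were 8.03 and 6.57 (edgeR adjusted p = 1.39e-08 and 1.09e-05). Otp, which acts with Sim1 in neurosecretory neurons, differed by 7.04 and 5.86, with 36.8 CPM in mouse 1422 within the 36.6 to 48.2 CPM of the other 6. Bsx, required in Agrp neurons, differed by 7.01 and 7.11. The Nkx2-1 relative Nkx2-4 and the homeobox genes Hmx2 and Hmx3 differed by 7.66 and 7.73, 6.30 and 7.30, and 7.70 and 7.08. Isl1, which takes part in the specification of arcuate neurons, differed by 6.78 at 16 h and by 3.83 at 24 h, where 1 of the other columns held 16.4 CPM.

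Foxb1, expressed in and around the mammillary region, rose by 2.97 and 2.48 on the log2 scale, and Lmx1b by 3.59 and 2.44. The 2 listed factors that were lower are also known from other brain regions. Lhx9 had 2.91 to 5.30 CPM against 26.6 to 75.4 CPM at 16 h (log2 fold changes -3.67 and -4.01), and Barhl1 differed by -1.96 and -2.50. Against the other column with the highest mean over the 6 genes, Barhl1 was 1.11 higher at 24 h (adjusted p = 0.49). Sfta3 (GRCm39 chr12:56535106-56576515), a neighbour of Nkx2-1, was no member of the list and came among the 10 highest genes, at 28.1 to 33.6 CPM against 0.0524 to 0.294 CPM at 16 h and log2 fold changes of 7.32 and 6.08. It shares its strand and position with Gm47720, so reads of the pair cannot be told apart.

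Of 8 transcription factors of GABAergic forebrain neurons, 4 were at least 2-fold higher in both studies and 1 was at least 2-fold lower. Over all genes these shares were 2.77% and 2.3%. Dlx1 rose by 1.34 and 2.71, Dlx2 by 1.94 and 3.08, Dlx5 by 1.52 and 2.16 and Dlx6 by 1.79 and 2.34. Meis2, a homeobox factor expressed widely in forebrain and midbrain, fell by 3.52 and 2.63 and is overlapped by G630016G05Rik on the other strand. Vesicular GABA transporter mRNA (Slc32a1) differed by 0.24 (adjusted p = 0.0117) and 0.29 (adjusted p = 0.29), and the glutamate decarboxylase gene Gad1 by -0.53 (adjusted p = 0.00012) and -0.52 (adjusted p = 0.0167).

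Receptors for peptides and energy signals were higher in the hypothalamus columns in 12 of 22 genes tested in both studies, by at least 2-fold in each. None was at least 2-fold lower in each. Over all genes these shares were 2.77% and 2.3%. The median log2 fold change was 1.44 at 16 h and 1.20 at 24 h. The calcitonin receptor gene Calcr, which with activity-modifying proteins forms the amylin receptor, had 26.2, 22.0, 27.4, 26.8 and 26.8 CPM against 0.0393 to 1.29 CPM at 16 h, and 22.2 to 27.2 CPM outside mouse 1422 against 0.104 to 1.33 CPM at 24 h. The groups did not overlap, with log2 fold changes of 6.17 and 5.29 (edgeR adjusted p = 1.04e-05 and 4.13e-05), and Gm33576 overlaps it on the other strand. Gpr50, a relative of the melatonin receptors known from tanycytes, differed by 5.61 and 5.32. The bombesin-like receptor gene Brs3 differed by 5.92 and 5.00 at 2.18 to 4.21 CPM.

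The melanocortin receptors took different positions. Mc3r had 8.23, 6.92, 8.81, 7.40 and 8.11 CPM against 0.171 to 0.626 CPM at 16 h, and differed by 4.18 and 3.38 on the log2 scale. Mc4r, the receptor through which melanocortins restrain food intake, had 2.34, 2.65, 3.52, 2.27 and 2.12 CPM against 1.18 to 2.41 CPM, and the groups overlapped in both studies. Its log2 fold changes were 0.33 (edgeR adjusted p = 0.13) and 0.25 (edgeR adjusted p = 0.50). The leptin receptor gene Lepr rose by 0.70 at 16 h (adjusted p = 0.00585) and differed by 0.18 at 24 h (adjusted p = 0.64), where another column held up to 34.4 CPM. The ghrelin receptor gene Ghsr was higher, by 3.50 and 3.01, and the GLP-1 receptor gene Glp1r by 2.90 and 2.47. Receptors of the peptides above followed them in part. Avpr1a differed by 3.40 and 2.96, Galr1 by 2.93 and 2.85, Hcrtr1 by 1.18 and 1.22 and Hcrtr2 by 1.63 and 1.61. The melanin-concentrating hormone receptor gene Mchr1 differed by -0.06 (adjusted p = 0.67) and 0.61 (adjusted p = 0.0097).

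Beside 2.77% of all genes, 6 of 10 genes for steroid and other hormone signals were at least 2-fold higher in both studies. Irs4, an adaptor of the insulin and leptin pathways, had the largest log2 fold change of them and was 1 of the 10 genes placed highest, with 151.7, 138.2, 173.9, 155.96 and 152.99 CPM against 1.52 to 5.66 CPM at 16 h. Its 24 h values were 42.6 CPM in mouse 1422 and 125 to 160 CPM in the other 6, and its log2 fold changes were 5.79 and 5.03 (edgeR adjusted p = 5.42e-07 and 3.00e-06). The prolactin receptor gene Prlr differed by 3.08 and 1.93, the oestrogen receptor gene Esr1 by 2.16 and 2.28, and Ghr by 1.30 and 1.19. The insulin receptor gene Insr differed by 0.01 (adjusted p = 0.83) and 0.06 (adjusted p = 0.65). Nr3c2, the mineralocorticoid receptor gene, which hippocampal neurons express strongly, fell by 0.94 and 1.28.

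**Figure D4:**
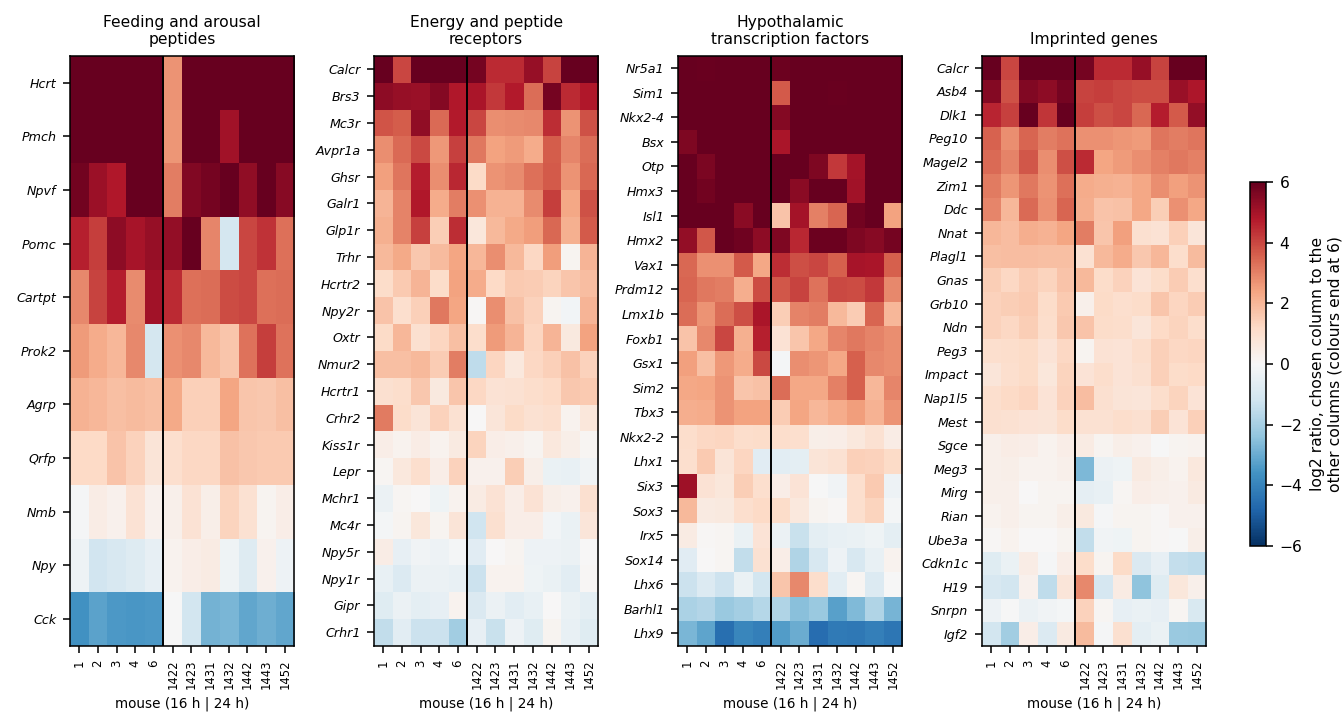
Log2 ratio of the hypothalamus column to the sum of the other columns for each mouse (columns of each panel, 16 h mice left of the line and 24 h mice right of it) and each gene of 4 lists that was tested in both studies and is reported here, with red for higher and blue for lower in the hypothalamus and colours ending at 6. Nr5a1, Sim1 and Nkx2-4 are red in all 12 mice, and mouse 1422 differs from its neighbours for Hcrt, Pmch and Meg3.

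Genes known as imprinted, which are expressed mainly from 1 parental copy in at least some tissues, were a further group with higher levels. The counts do not tell the parental copies apart. Of 25 imprinted genes, 13 were at least 2-fold higher and 0 at least 2-fold lower in both studies, and 11 exceeded every other column in all 12 mice. Over all genes these shares were 2.77%, 2.3% and 1.39%. The median log2 fold change was 1.16 at 16 h and 1.08 at 24 h. Dlk1, a regulator of growth, had 238, 223, 206, 217 and 203 CPM against 2.06 to 12.3 CPM at 16 h and 76.6, 279 and 402 CPM (lowest, median and highest) against 6.20 to 24.7 CPM at 24 h. Its log2 fold changes were 5.03 and 4.15 (edgeR adjusted p = 5.74e-06 and 7.30e-06). Meg3, expressed from the other parental copy of the same cluster, rose by 0.28 (adjusted p = 0.000931) and differed by -0.15 at 24 h (adjusted p = 0.84), or by 0.23 without mouse 1422 (adjusted p = 0.307).

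Asb4, known from arcuate neurons, differed by 5.14 and 4.31, at 41.5 to 47.03 CPM against 0.802 to 2.79 CPM at 16 h. Magel2, Ndn and Snrpn lie in the cluster lost in Prader-Willi syndrome. Magel2 had 97.2, 75.5, 90.4, 95.1 and 81.5 CPM against 5.38 to 13.0 CPM at 16 h and differed by 3.33 and 3.04, and Ndn differed by 1.35 and 1.17. Snrpn fell by 0.20 at 16 h (adjusted p = 0.00938) and differed by -0.11 at 24 h (adjusted p = 0.80). Peg10 had 378 to 507 CPM against 37.8 to 64.2 CPM at 16 h and differed by 3.22 and 2.89. Zim1 and Peg3, neighbours in a cluster, differed by 2.98 and 2.38 and by 1.06 and 0.99. Calcr and Ddc belong to this list and also to others described here.

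The enzymes and transporters of amines divided by transmitter. Hdc, which makes histamine in tuberomammillary neurons, had 47.8, 46.4, 65.2, 60.1 and 68.4 CPM against 0.862 to 2.00 CPM at 16 h and 41.2 to 54.9 CPM outside mouse 1422 against 1.52 to 2.98 CPM at 24 h. Its log2 fold changes were 5.31 and 4.16 (edgeR adjusted p = 6.62e-08 and 8.27e-06), with no overlap. Tyrosine hydroxylase (Th) differed by 3.69 and 2.73 and the vesicular amine transporter gene Slc18a2 by 2.40 and 1.69. Tph2, which makes serotonin in raphe neurons, fell by 4.76 and 3.34. Another column reached 111.7 CPM of it at 16 h.

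The dopamine transporter gene Slc6a3 varied widely between the mice of the 16 h study. It had 50.0, 73.4 and 58.1 CPM in the hypothalamus columns of mice 1, 2 and 6 and 8.35 and 5.31 CPM in those of mice 3 and 4, against 0.170 to 1.04 CPM in the sums of the other columns. En1, a transcription factor of midbrain dopamine neurons, had 2.39, 3.18 and 1.65 CPM in the same 3 hypothalamus columns and 0.455 and 0.0597 CPM in those of mice 3 and 4. The dopaminergic nuclei of the midbrain lie directly behind the hypothalamus. Th was likewise higher in these 3, at 43.3, 48.5 and 38.7 CPM against 21.3 and 24.8 CPM. At 24 h Slc6a3 had 1.31 to 18.7 CPM and En1 0.0484 to 1.74 CPM. The log2 fold changes of Slc6a3 were 6.15 and 3.82 (adjusted p = 8.36e-06 and 0.000109), and the part of midbrain tissue in them was not tested.

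Genes lower in the hypothalamus included many of the listed genes of cortex, hippocampus, midbrain and thalamus. The vesicular glutamate transporter gene Slc17a7 (GRCm39 chr7:44813305-44825644), used by cortical and hippocampal projection neurons, had 4.22, 7.12, 4.55, 4.53 and 5.43 CPM against 492 to 694 CPM at 16 h. In the 24 h columns it had 273 CPM in mouse 1422, 88.3 CPM in mouse 1423 and 1.01 to 7.38 CPM in the other 5, against 142 to 535 CPM. The groups did not overlap at 16 h and did at 24 h. The log2 fold change was -6.92 at 16 h (edgeR adjusted p = 6.33e-09) and -5.14 at 24 h (edgeR adjusted p = 0.0186), or -5.61 without mouse 1422 (adjusted p = 0.00205). The transporter gene Slc17a6, which most hypothalamic glutamate neurons use, rose by 0.46 at 16 h (adjusted p = 0.00387) and differed by -0.21 at 24 h (adjusted p = 0.61).

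Of 17 cortical and hippocampal genes, 10 were at least 2-fold lower in both studies, beside 2.3% of all genes, and 0 were called higher in either. The summed level of the list was 688 to 724 CPM in the hypothalamus columns and 2629 to 3536 CPM in the other columns at 16 h. The 24 h sums were 701 to 1328 CPM and 1233 to 3712 CPM. Tbr1, a factor of deep cortical layers, fell by 5.15 and 2.22, and Neurod6 by 4.59 and 3.59. In mouse 1422 the hypothalamus column held 31.5 CPM of Tbr1. The other 6 mice held 1.43 to 2.87 CPM of Tbr1.

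Of 18 genes of midbrain and thalamus, 13 were at least 2-fold lower in both studies, beside 2.3% of all genes, and 0 were called higher in either. Tfap2d and Tfap2b, factors of collicular neurons, fell by 7.25 and 7.11 and by 5.40 and 5.11. Without mouse 1422 the 24 h value of Tfap2d was -8.76. The POU factor gene Pou4f2 had 0.104, 0.0657, 0.0607, 0.119 and 0 CPM against 5.97 to 15.4 CPM at 16 h, with a log2 fold change of -7.28. At 24 h it was at 0 in 5 of 7 hypothalamus columns and at most 0.435 CPM, against 2.17 to 16.4 CPM in the sums of the other columns. Its relative Pou4f1 fell by 4.36 and 6.69. Shox2, a factor of thalamic neurons, fell by 4.67 and 5.30. Gata3, expressed by midbrain GABA neurons, fell by 3.91 and 5.29. None of the 9 hindbrain Hox genes was tested, and summed they had at most 0.461 CPM in a hypothalamus column and at most 0.154 CPM in the other columns at 16 h. In the other columns at 24 h their sum had a median of 0.165 CPM and reached 6.26 CPM. Thus the 10 genes that the rule for named genes places lowest include 5 of collicular and thalamic neurons, with Slc17a7 beside them.

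The other 4 of those 10, Gabra6, Cbln3, Fat2 and Cnpy1, are known from the cerebellum and isthmus rather than from any region dissected. Gabra6 and Cbln3, both of cerebellar granule cells, fell by 7.35 and 5.71 and by 5.44 and 4.39. Fat2 had 0.937, 0.701, 2.03, 0.477 and 1.65 CPM in the hypothalamus columns at 16 h, and 76.3, 6.38, 157.2, 5.87 and 719 CPM in the sums of the other columns. The sums thus varied widely between mice, and a single other column reached 2719 CPM. Cbln3 and Fat2 were each highest in the same other column as Gabra6 in 5 of 5 mice at 16 h and in 6 of 7 mice at 24 h. Further pairs matched in fewer mice. Pou4f2 and Tfap2b shared their highest other column in 4 of 5 mice at 16 h and 4 of 7 at 24 h. Slc17a7 and Neurod6 did so in 2 of 5 at 16 h. Each mouse had only 3 or 4 other columns, so some matches come by chance. The cerebellum borders the inferior colliculus, and its part in the other columns was not tested.

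**Figure D5:**
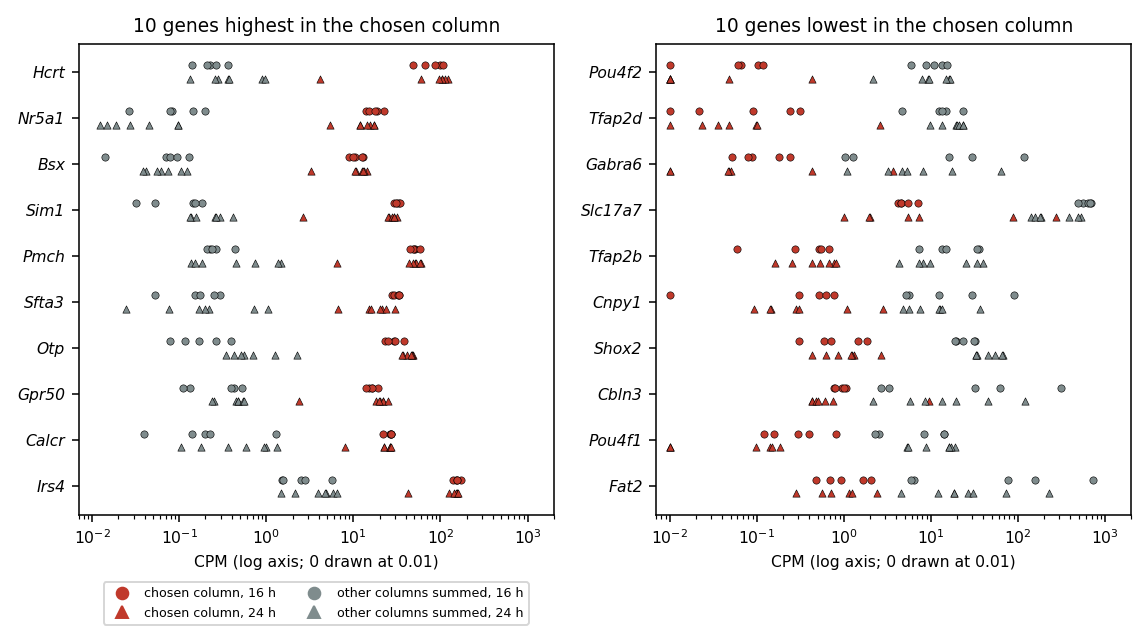
Level in CPM (horizontal axis, log scale with 0 drawn at 0.01) of the 10 genes placed highest and the 10 placed lowest by the rule for named genes, in the hypothalamus column (red) and the sum of the other columns (grey) of each mouse, with 16 h mice as circles and 24 h mice as triangles. The red and grey points are apart for all 10 higher genes, and for Slc17a7 the points of mice 1422 and 1423 lie to the right of the other hypothalamus columns.

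Of the listed genes of glia, vessels and blood, Agt alone was called at least 2-fold changed in either study. Among all genes tested, 42.2% were called at 16 h and 18.1% at 24 h. Those called at least 2-fold were 5.3% higher and 5.15% lower at 16 h, and 3.3% and 3.81% at 24 h. For lists of 5 to 10 genes, 0 calls of 2-fold lie close to these shares and say little about the cell types. Of 10 oligodendrocyte genes, 0 were called at 16 h (median log2 fold change 0.02) and 5 were lower at 24 h, none by 2-fold (median -0.71). Summed, they had 3186 to 4457 CPM in the hypothalamus columns at 24 h and 4583 to 8453 CPM in the other columns, without overlap. Of 10 astrocyte genes the angiotensinogen gene Agt alone was at least 2-fold higher in both studies, by 1.96 and 1.16. None of the 8 microglia, 8 endothelial and mural, 7 meningeal and 5 blood genes was called at least 2-fold changed in either study. Smaller calls at 16 h were 3 lower microglia genes, 5 lower endothelial and mural genes, 1 lower meningeal gene and 4 lower and 1 higher blood genes, and at 24 h there were 0 in these lists. The summed microglial level was 184.02 to 200.2 CPM in the hypothalamus columns at 16 h and 172.45 to 228 CPM in the other columns. Of 8 choroid plexus genes, 2 were higher and 2 lower at 16 h and 2 were lower at 24 h. Clic6 rose by 2.32 at 16 h and differed by 1.09 at 24 h (adjusted p = 0.0805). Transthyretin (Ttr), the main secreted protein of the choroid plexus, fell by 4.09 and 5.48 (-6.10 without mouse 1422), with up to 7694 CPM in another column at 24 h.

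Tanycytes line the floor of the third ventricle and contact the blood of the median eminence. Of 13 genes of tanycytes and ependyma, 6 were at least 2-fold higher and 2 at least 2-fold lower in both studies, beside 2.77% and 2.3% of all genes. The sodium channel gene Scn7a had 42.6, 41.7, 47.6, 38.5 and 26.4 CPM against 4.65 to 8.36 CPM at 16 h and differed by 2.52 and 2.68, and Col23a1 differed by 1.67 and 1.51. The lower genes were Lhx2, also a factor of cortex and thalamus (-2.71 and -1.57), and Dio2, which activates thyroid hormone and is also made by astrocytes (-2.28 and -1.52). Of the suprachiasmatic genes, 2 of 9 tested in both studies were at least 2-fold higher in both. These were Syt10 (1.16 and 1.18) and Prok2, a circadian output peptide (2.20 and 3.15). At 16 h 2 of 10 tested were at least 2-fold lower, Vip among them, and at 24 h 7 of 9 were not called. The median log2 fold change of this list was 0.37 at 16 h and -0.10 at 24 h. Prok2 had 2.34, 0.767, 1.03 and 1.49 CPM in mice 1, 2, 3 and 4 and 0.157 CPM in mouse 6, below the 0.362 CPM of its other columns.

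The difference between hypothalamus and other columns was itself compared between the studies, with both in 1 fit. It differed for 223 of 28170 genes (0.792%), 190 with a more positive log2 fold change at 24 h and 33 with a more negative one (edgeR adjusted p under 0.05). These counts moved with the mice left out. They came to 17, all of the first kind, without mouse 1, and to 2.66% of genes, 572 of them of the first kind, without mouse 1422. Leaving out 1 of the other 16 h mice gave 0.134% to 0.308%, and 1 of the other 24 h mice 0.356% to 0.776%. Leaving out a mouse also leaves fewer pairs, which cannot be told apart from the part of that mouse. The other columns hold prefrontal cortex at 16 h and zona incerta at 24 h, which cannot be told apart from the study.

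The 3 genes with the smallest adjusted p of a more positive difference were Bmp3, Nlk and Cd34. Bmp3, a bone morphogenetic protein, had 8.41 to 11.1 CPM in the hypothalamus columns at 16 h against 16.8 to 28.9 CPM. At 24 h it had 2.61 CPM in mouse 1422 and 9.40 to 11.3 CPM in the other 6, against 2.74 to 6.88 CPM. It was lower at 16 h (-1.27) and higher at 24 h (1.04), a difference of 2.36 (adjusted p = 0.00208). Against the next column alone its 16 h log2 fold change was 0.60 (adjusted p = 0.098). The kinase gene Nlk differed by -1.17 and -0.22 and the cell surface gene Cd34 by -1.64 and -0.34. Bmp3 and Abhd12b (1.07 and -4.12) were the only genes called at least 2-fold in opposite directions.

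In the other direction stood Vav3, Paqr5 and Gm48260. Vav3, a guanine nucleotide exchange factor gene, differed by -0.65 and -1.80 (difference -1.13, adjusted p = 0.0142, or -0.98 and 0.0588 without the columns of low gene detection). At 24 h it was highest in the same other column as Prkcd, a kinase gene of thalamic neurons, in 7 of 7 mice, as were Gm48260 in 5 and Paqr5 in 2 of them. With 3 or 4 other columns per mouse, some matches come by chance. Prkcd reached 1232 CPM in another column at 24 h and 58.8 CPM at 16 h. The progestin receptor gene Paqr5 was higher at 16 h (0.49) and lower at 24 h (-0.50, adjusted p = 0.0295). The 24 h call was lost with equal weight in limma (-0.28, adjusted p = 0.439), with thinned counts (adjusted p = 0.141), with columns from 500000 counts (adjusted p = 0.0843) and without any 1 of mice 1423, 1431, 1432, 1442 and 1443 (adjusted p up to 0.0978), and against the next column the value was 0.22 (adjusted p = 0.807). It was lower in mouse 1422 than in the other mice, at 1.52 CPM against 3.12 to 4.16 CPM. Gm48260, which overlaps Adarb2 on the other strand, differed by -0.16 and -1.17.

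Setting the hypothalamus column against only the 1 other column next in the 6 genes changes the tissue compared and lowers the counts. The remaining regions leave the comparison, and the labels do not give the region of the next column, which may differ between mice. In 3 mice at 24 h it is a column of low gene detection. A lost call or turned sign in this setting can therefore not be put down to counts alone. Of the 694 genes higher in both studies, 644 could be tested in this way at 16 h and 508 were called. At 24 h 585 could be tested, 268 were called, and 584 kept their direction. Of the 577 lower genes, 196 of 456 were called at 16 h and 63 of 403 at 24 h, and 452 and 379 kept their direction. Without mouse 1422, 694 of the 694 higher genes and 574 of the 575 lower genes tested were called at 24 h. All these genes were picked by calls in fits of the same hypothalamus columns. Most were thus bound to keep their call or direction, and the counts are a description and no independent check.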

How the data were processed

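Each brain region of each mouse gave 1 ribosomal RNA-depleted library. After bcl2fastq 2.20.0, alignment by the authors used STAR 2.7.3a and GRCm39, and they deposited raw counts per Ensembl gene for 57010 genes, in 5 columns for each of 37 mice, without a filter or normalization. Which annotation release and which strand column were counted is not given in the sources used here. Symbols came from GENCODE vM39, which matched 56310 genes. No count row without a gene was found. Intervals and limits on counts would cover counting error only, since the reads carry no molecular identifiers, and depth limits genes of low counts most.

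Columns were assigned to mice by their headings, each of which names 1 sample and is repeated over 5 columns, so that 5 columns of a heading sharing a mouse is a reading that the labels do not state, and the hypothalamus column of a mouse was chosen by the levels of the 6 genes given above. Genes were tested per study by the quasi-likelihood test of edgeR 4.0.16 (glmQLFit and glmQLFTest after filterByExpr and TMM; R 4.3.3), with mouse as a block, on 2 units per mouse. The pairing comes from the mouse itself. The alternatives were DESeq2 1.42.0 on genes totalling over 10 counts, limma 3.58.1 on log2 CPM with each other column at equal weight, other size factors, no filter, counts thinned to 12707072 (16 h) or 4596549 (24 h), other column limits, the 6 genes kept, no replicate block and each mouse left out. Per-mouse log2 ratios use a prior count of 2. Single measures were compared with exact sign-flip permutation tests in Python 3.11.15 (numpy 2.4.6, pandas 2.3.3, scipy 1.17.1). Figures were drawn with matplotlib 3.10.9.

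Named genes were up to 10 higher and 10 lower with the largest smaller absolute log2 fold change of the 2 studies, among genes called alike in both, averaging at least 2 in log2 CPM and with 1 direction in every mouse. Added were up to 3 per direction with the smallest adjusted p of the difference between studies, and members of 24 gene lists. Some list members are counted with their lists and not reported here by name. The rule, members and lists were chosen with earlier results of these data known. Columns from 500000 counts, and mouse 5 with the higher of its 2 columns, were tried after seeing the data. On simulated counts, 48 of 50 genes changed 2-fold and 35 of 50 changed 1.5-fold were recovered in the 16 h comparison, with 17 false calls among 26719 genes. In the 24 h comparison these were 39 and 8 of 50, with 7 false calls among 24940. The changed genes were drawn only from genes averaging at least 50 counts, and far fewer genes were changed than were called in the data. Recovery at lower counts, and false calls when many genes change, were not tested.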

Additional observations from a re-analysis of the deposited data

Results flagged for a closer look

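The log2 ratio of hypothalamus column to other columns was screened for single mice far from the rest in 292 groups of 5 or 7 mice, and 43 values stood out by Dixon's criterion, which flags about 1 in 20 groups by chance. Mouse 1422 gave 27 of them, and its library also had the fewest counts of the chosen columns. Of peptide and processing genes it stood out for Hcrt (2.71), Npvf (3.06), Scg2 (-0.57), Pcsk1 (-0.15), Pcsk1n (3.81), Pcsk2 (-1.87) and Chga (-1.25). Of factors and receptors it stood out for Sim1 (3.68), Gpr50 (2.84), Ghsr (1.16), Esr2 (3.60), Pou4f2 (-1.71), Tfap2d (-1.33) and Meis2 (-0.0733). The amine genes Hdc (2.73) and Slc18a2 (-0.20) and the imprinted genes Magel2 (4.46) and Meg3 (-2.69) were further ones. Its astrocyte genes Aqp4 (-1.91) and Slc1a2 (-1.84) and its vascular genes Slco1a4 (-2.06), Rgs5 (-2.42), Flt1 (-3.18) and Cldn5 (-2.68) were low, and its blood genes Hba-a1 (2.99), Hbb-bs (2.35) and Alas2 (1.40) were high. Which of RNA amount, sequencing block and dissection moved with these values cannot be told apart.

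The other values of single mice were fewer. They were Hcrt in mouse 1 (8.46), Pmch (6.64), Npy1r (-0.82), Tmem212 (1.38), Asb4 (3.81) and Hba-a2 (-0.0753) in mouse 2, Gad2 (0.12) and Cldn5 (-0.44) in mouse 4, and Pou4f2 (-7.18), Prok2 (-1.06) and Tmem119 (0.41) in mouse 6. In mouse 1423 they were Cd34 (0.24), Hmx2 (4.54) and Dlx5 (5.07), in mouse 1431 Lepr (1.46) and in mouse 1432 Tbx19 (2.00).

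The log2 fold change differed between the studies (24 h minus 16 h, edgeR interaction test) for Bmp3 (2.36), Nlk (0.96), Cd34 (1.32), the thyroid hormone enzyme gene Dio2 (0.77) and the astrocyte gene Mfge8 (0.59), and in the other direction for Vav3 (-1.13), Paqr5 (-0.98) and Gm48260 (-0.98).

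Hypothalamic genes were also high in columns left out of the comparisons above. The second column of mouse 5 had a mean level of 4.44 over the 6 genes, and the column of mouse 1451 under the count limit had 4.32. The latter entered only with columns from 500000 counts.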

How the results depend on the processing

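Counts of called genes are totals, followed by how many were higher. At 16 h, limma with equal weight per other column gave 1635 (875) genes changed at least 2-fold, and the next column 2593 (1600) genes, 1041 (753) of them at least 2-fold. Leaving out each mouse gave 9136 to 11358 genes, 2671 to 3009 at least 2-fold. At 24 h, an adjusted p under 0.01 gave 2202 (1230) genes, 1214 (638) at least 2-fold. For limma these were 2828 (1598) and 1013 (531), for the next column 563 (396) and 475 (350), and for thinned counts 2742 (1375) and 898 (413). Leaving out each mouse gave 2892 (without mouse 1442) to 7722 (without mouse 1422), and 1448 to 1964 at least 2-fold. Without mouse 1443 there were 3158 (1713). The difference between the studies was called for 3.51% of genes by DESeq2 (598 more positive and 232 more negative at 24 h), 1.15% without the replicate block (252 and 72), 0.862% with columns of at least 16000 genes (169 and 70), 0.0603% at an adjusted p under 0.01 (17 and 0), 0.411% with columns from 500000 counts (97 and 19) and 0.912% with mouse 5 added (195 and 60), the last 2 tried after seeing the data. Leaving out each mouse gave 0.06% to 2.66%, and the edgeR p was under 0.05 without adjustment for 3094 genes.

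Without the replicate block, edgeR called 6202 and 5229 genes at 16 h and 3264 and 3230 at 24 h. Among genes called under either setting, the sign turned against the next column for Bmp3 (0.60), Sst (0.34), Npy (0.61), Cx3cr1 (0.000306) and Alas2 (-0.0169) at 16 h and for Paqr5 (0.22), Barhl1 (1.11), Pax7 (1.25) and Gata2 (0.50) at 24 h, and for Mobp without mouse 6 (range over mice left out -0.172 to 0.0755). Mobp was not called at 16 h (0.0097) and was also below 0, uncalled, against the next column (-0.37), with DESeq2's size factors (-0.018), with no filter (-0.024), in DESeq2 (-0.025) and without the block (-0.0041). The mitochondrial share turned to 0.0462 points higher without mouse 1 and 0.0568 without mouse 4, with a range of -0.394 to 0.0568 at 16 h and -3.60 to -1.69 at 24 h over the mice left out. Gene detection ranged from 343 to 438 and from -504 to -46.0. Fewer counts or samples are part of the next-column, thinned and left-out settings, and the next-column setting also leaves out the other regions. Otherwise the cause was not tested. Of the gene results, 10 of 300 changed sign or side of the threshold under DESeq2, and 91 of 276 against the next column.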

Other observations

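The 2 columns of mouse 5 that were high in the 6 genes were alike in other hypothalamic genes. Hcrt had 39.1 and 38.6 CPM, Pmch 38.8 and 49.3 CPM, Sim1 28.9 and 29.5 CPM, Otp 32.03 and 35.1 CPM and Pomc 37.0 and 33.7 CPM. The labels give this mouse a hypothalamus library that passed and a prefrontal cortex library that failed the check by principal components. Its highest column for the cortical factor Tbr1 held 46.8 CPM.

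In the column of mouse 1451 under the count limit, Hcrt had 52.9 CPM, Pmch 25.9 CPM, Otp 21.8 CPM and Sim1 5.18 CPM, beside 21.8 CPM of Slc17a7. Mouse 4 had a column of 683173 counts with a mean level of 1.31 over the 6 genes, which was left out too.

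Tbx19, a factor of pituitary cells that make Pomc, was higher in the hypothalamus columns in both studies, by 5.87 and 5.08 on the log2 scale. At 16 h it had 2.08, 1.64, 1.76, 1.73 and 1.18 CPM, where Gh was at most 1.10 CPM. At 24 h it had 3.53 CPM in mouse 1431 and 0.960 to 1.5 CPM in the other 6.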
